A study of Rattus norvegicus with 40 samples.

Results

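Transcripts of 6 neuronal genes were followed in rat microglia isolations, where neurons are not the cells sought. The genes are Snap25 (ENSRNOG00000006037), Syt1 (ENSRNOG00000006426), Nefl (ENSRNOG00000013658), Nefm (ENSRNOG00000013916), Gad1 (ENSRNOG00000000007) and Rbfox3 (ENSRNOG00000003386). They were chosen by ID as neuronal genes carried along when cells are captured by CD11b, a surface integrin of microglia and other myeloid cells. All 6 have a row among the 32883 Ensembl gene IDs of the deposited count table. That table gives IDs alone, and the symbols used here are those that came with the list of members.

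The libraries were bulk RNA sequencing of cells taken with anti-CD11b magnetic beads from the cervical spinal cord (segments C3 to C6) and the medulla of Sprague Dawley rats aged 8 weeks. Their mothers had breathed either intermittent hypoxia, alternating 10.5% and 21% oxygen, or intermittent normoxia, 21% oxygen throughout. Exposure lasted from gestational day 10 to day 21, with 15 cycles an hour during 8 hours of each day, and birth and growth followed in room air. There were 40 libraries from 20 animals, 1 cord and 1 medulla library from each. The 8 groups of 5 libraries were female hypoxia cord and medulla, female normoxia cord and medulla, male hypoxia cord and medulla, and male normoxia cord and medulla. Per the series design, each exposure drew 1 male and 1 female from each of 5 litters, so the replicates of a group were separate animals.

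Snap25 and Syt1 act together at the presynaptic terminal. Snap25 is a membrane-bound SNARE that drives fusion of synaptic vesicles, and Syt1 is the vesicle calcium sensor that triggers it. Nefl and Nefm are the light and medium subunits of neurofilaments, the intermediate filaments that fill large-calibre axons of the long motor and sensory tracts. Gad1 makes the inhibitory transmitter GABA from glutamate, and Rbfox3 is the splicing factor known as the neuronal nuclear antigen NeuN. In the cord and medulla these genes mark neurons, while microglia are known by other genes.

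Depth set how much of each gene could be seen. Libraries held 6061346 to 24039411 reads in genes, and female hypoxia medulla replicate 3 was the shallowest, with 13379 genes detected against 15094 to 18339 in the other 39. Results that rest on it are given with and without it. The markers of microglia, oligodendrocytes, astrocytes, endothelium and other cells could not be looked up, because no table used here pairs the IDs with names. The labelled cell type was therefore not checked, and neither was the part of other cell types in any result below. In bulk RNA, more neuronal material in a sample cannot be told apart from more RNA of a gene per neuron.

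The 6 genes made up a very small part of every library. Together they took 0.000716% of reads in male normoxia medulla replicate 5 and 0.0255% in female hypoxia cord replicate 2, the lowest and highest of the 40. Summed over the 6 genes, levels in CPM (reads scaled to a library of 1000000 reads) averaged 132 ± 81.8 in female hypoxia cord, against 38.1 ± 40.3 in female hypoxia medulla (SD, n = 5 each). They averaged 46.8 ± 33.9 CPM in female normoxia cord and 34.1 ± 21.7 in female normoxia medulla. In males the sums were 43.8 ± 20.3 CPM in hypoxia cord and 32.5 ± 13.8 in hypoxia medulla, and 50.2 ± 32.6 in normoxia cord and 23.1 ± 12.04 in normoxia medulla. The SD was a large part of the mean in all 8 groups, so that animals of 1 group differed severalfold.

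The neurofilament subunit Nefl was higher in the cord than in the medulla library in 18 of 20 animals. In female hypoxia animals 1 to 5 Nefl stood at 29.2, 117, 21.3, 71.8 and 54.2 CPM in the cord, against 3.70, 15.0, 4.12, 3.57 and 33.2 CPM in the medulla. In female normoxia animals it stood at 9.11, 24.2, 8.62, 39.6 and 10.7 CPM in the cord, against 8.11, 5.76, 7.36, 27.4 and 7.73 CPM in the medulla. In all 10 females the cord value was the higher of the pair, although the ranges of cord and medulla overlapped within each exposure. Nefl stood at 16.6, 18.7, 21.2, 28.8 and 4.51 CPM in the cord of male hypoxia animals, against 7.18, 8.66, 7.53, 14.6 and 18.5 CPM in their medulla. In male normoxia animals it stood at 13.997, 34.9, 8.26, 26.8 and 8.37 CPM in the cord, against 6.90, 5.99, 13.2, 8.79 and 1.37 CPM in the medulla. The animals that went the other way were male hypoxia 5 and male normoxia 3.

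Nefm, which co-assembles with Nefl, was also higher in the cord in 18 of 20 animals. In female hypoxia animals Nefm stood at 22.7, 81.1, 16.0, 58.1 and 40.1 CPM in the cord, against 4.74, 16.3, 7.26, 2.55 and 31.3 CPM in the medulla. In female normoxia animals it stood at 9.20, 24.7, 12.02, 44.2 and 7.65 CPM in the cord, against 8.37, 3.84, 7.84, 24.1 and 6.81 CPM in the medulla. The animal with the highest cord value in each female group was the same as for Nefl. In male hypoxia animals Nefm stood at 17.3, 20.4, 9.96, 30.5 and 8.04 CPM in the cord, against 7.72, 6.92, 8.37, 8.77 and 13.9 CPM in the medulla. In male normoxia animals it stood at 18.4, 42.0, 11.0, 33.3 and 5.75 CPM in the cord, against 5.25, 4.28, 11.8, 7.55 and 1.64 CPM in the medulla. The exceptions were again male hypoxia 5 and male normoxia 3.

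Snap25, the vesicle fusion protein, was not ordered by region in this way: it was higher in the cord in 11 of 20 animals and lower in 9. In female hypoxia animals Snap25 stood at 13.9, 51.6, 12.9, 28.2 and 31.6 CPM in the cord, against 5.33, 16.2, 0.825, 3.23 and 37.0 CPM in the medulla. In female normoxia animals it stood at 5.03, 12.1, 4.54, 13.9 and 3.15 CPM in the cord, against 11.5, 6.90, 9.06, 18.4 and 8.88 CPM in the medulla. The cord value was the higher in 4 of 5 female hypoxia animals and in 1 of 5 female normoxia animals. In male hypoxia animals Snap25 stood at 7.49, 9.94, 6.73, 11.2 and 3.04 CPM in the cord, against 6.37, 5.85, 9.21, 10.6 and 18.7 CPM in the medulla. In male normoxia animals it stood at 5.65, 15.5, 4.99, 13.3 and 4.01 CPM in the cord, against 8.16, 5.74, 12.9, 11.3 and 3.83 CPM in the medulla. Cord and medulla overlapped in both male groups, with the cord the higher in 3 of 5 animals of each.

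**Figure D1:**
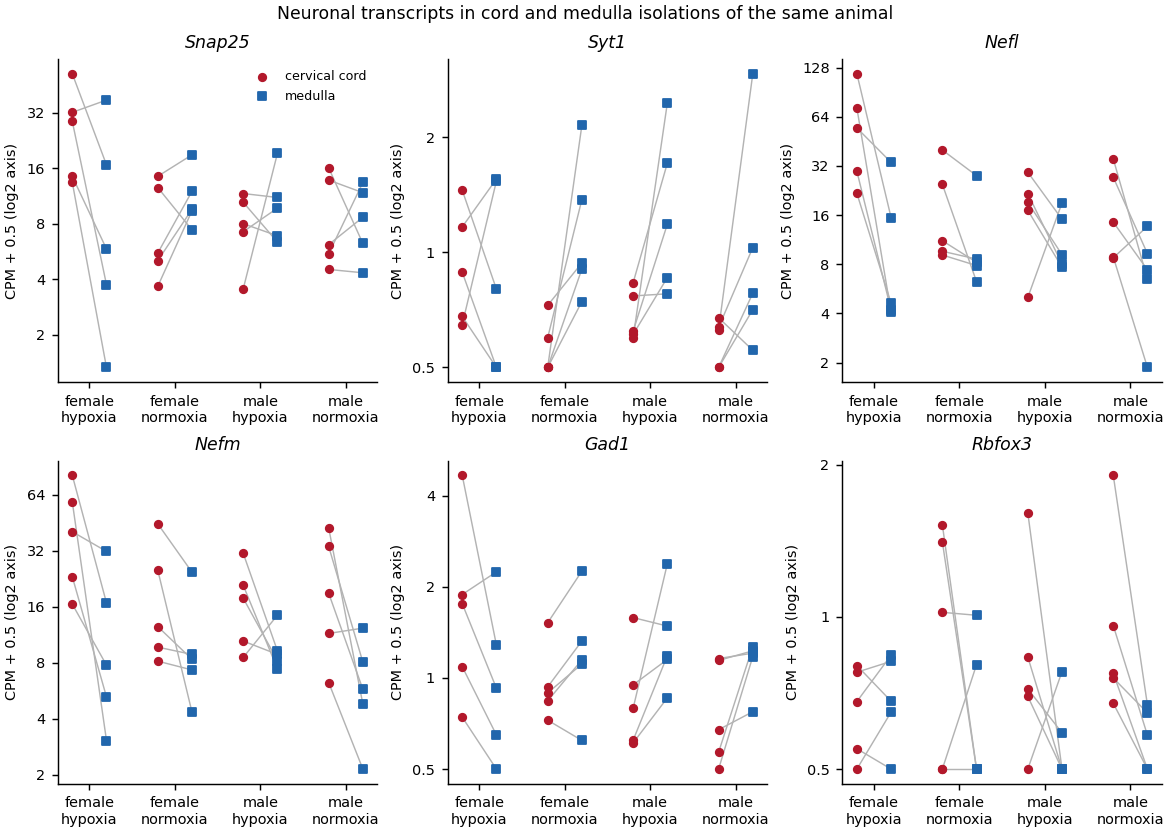
Level of each of the 6 genes in every library, as CPM plus 0.5 on a log2 axis, with cord (circles) and medulla (squares) of the same animal joined by a line. Nefl and Nefm lines fall towards the medulla in 18 of 20 animals, Syt1 lines climb towards it in 16 of 20, and Snap25 lines go both ways.

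The other genes were close to the limit of detection. Syt1, the calcium sensor, had 63 reads over the 20 cord libraries and 219 over the 20 medulla libraries, with 5 cord and 2 medulla libraries at 0. In female hypoxia animals Syt1 had 2, 19, 8, 3 and 12 reads in the cord, against 14, 5, 0, 0 and 20 reads in the medulla. In female normoxia animals it had 0, 1, 0, 2 and 0 reads in the cord, against 26, 10, 5, 5 and 4 reads in the medulla. In CPM the highest female normoxia cord value, 0.227, lay just under the lowest female normoxia medulla value, 0.243, a step of a few reads. The female hypoxia groups overlapped. The share of all genes without overlap was not counted. In male hypoxia animals Syt1 had 1, 1, 3, 4 and 1 reads in the cord, against 4, 9, 3, 16 and 26 reads in the medulla. In male normoxia animals it had 2, 0, 2, 0 and 2 reads in the cord, against 50, 5, 11, 5 and 1 reads in the medulla. A library at 0 for Syt1 allows a level of up to 0.198 to 0.495 CPM, depending on its depth (3 reads, counting error only).

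Gad1, the GABA-synthesising enzyme, had 212 reads in the cord and 226 in the medulla, with 1 library at 0 in each region. Of the cord reads, 83 came from female hypoxia cord replicate 2, at 4.17 CPM. The median was 0.413 CPM over cord libraries and 0.680 CPM over medulla libraries, and the cord value was the higher in 6 of 20 animals. Of those 6, 4 were female hypoxia animals. Rbfox3, the nuclear splicing factor, reached at most 13 reads in a library, with 85 reads in all in the cord and 40 in the medulla. It was at 0 in 13 of 40 libraries, and the cord level was the higher in 14 animals, the lower in 5 and equal in 1.

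Averaged over the 4 groups of sex and exposure, the neurofilament transcripts rose in the cord relative to the medulla and Snap25 did not pass the test. With edgeR's quasi-likelihood test on all 40 libraries, Nefl differed by 1.28 on the log2 scale (SE 0.31), 2.43-fold, at an adjusted p of 0.00216. Nefm differed by 1.40 (SE 0.31), 2.64-fold, at an adjusted p of 0.000658. This main fit compared group means, with no term for the animal. With each animal as a block, Nefl had 1.38 (adjusted p 0.00056 with edgeR) and Nefm 1.41 (adjusted p 0.00042). Both stayed called when any single library was left out of the main fit, at 1.16 to 1.50 for Nefl and 1.27 to 1.58 for Nefm. Of all 14832 genes tested, 24.4% were called between the regions, 9.5% higher in the cord and 14.9% lower. Snap25 had a log2 fold change of 0.10 (SE 0.29, adjusted p 0.858 with edgeR), which turned to -0.01 without female hypoxia cord replicate 2. Gad1 had -0.35 (SE 0.39, adjusted p 0.567 with edgeR).

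Syt1 fell in the cord by 2.11 on the log2 scale in the average (SE 0.49, adjusted p 0.00116 with edgeR). In female hypoxia animals Syt1 did not fall (0.06, adjusted p 0.968 with edgeR), and its CPM was higher in the cord in 3 of 5. This gene passed the filter on low counts through its medulla libraries and was under it in the cord. Passing in that way favours genes that differ, so the Syt1 call carries no weight as a count. Without the filter Syt1 had -2.11 (adjusted p 0.00151 with edgeR), still with few cord reads. Rbfox3 was under the filter. Without the filter its log2 fold change was 1.51 (adjusted p 0.065 with edgeR). With female hypoxia medulla replicate 3 left out it passed the filter and the test, at 1.46 and an adjusted p of 0.041. It was called in 21 of the 36 sets without 1 library in which it passed the filter. Rbfox3 passed there through its cord libraries, as no medulla library held more than 8 reads or 0.507 CPM. Its calls therefore carry no weight either. The median log2 fold change of the 5 genes that passed the filter was 0.10, against -0.01 over all genes tested. Leaving out female hypoxia medulla replicate 3 gave 1.24 for Nefl, 1.39 for Nefm and -2.16 for Syt1, each still called.

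Within the groups, the difference in neurofilaments was called in female hypoxia animals. There Nefl was higher in the cord by 2.40 on the log2 scale (SE 0.64), 5.26-fold, at an adjusted p of 0.00647 with edgeR. Nefm was higher by 1.90 (SE 0.62), 3.74-fold, at an adjusted p of 0.0212. These were 2 of the 5 members tested, in a comparison that called 26.2% of all genes, 12.7% as higher, so the share of members called is read against a high background. Snap25 had 1.25 (adjusted p 0.108 with edgeR), Gad1 1.37 (adjusted p 0.183) and Syt1 0.06 (adjusted p 0.968). In a fit that keeps each animal as a block, Snap25 was called too in these animals, at 1.93 and an adjusted p of 0.011 with edgeR.

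Single libraries moved several of these values. Nefl in female hypoxia animals stayed called without each of the 10 libraries in turn, at 1.92 to 3.28 on the log2 scale. Nefm lost its call without medulla replicate 1 (adjusted p 0.0595 with edgeR), medulla replicate 4 (0.0596) or cord replicate 2 (0.0883). Without medulla replicate 5, which held the most Snap25 reads of its group, Snap25 (2.25, adjusted p 0.00364 with edgeR) and Gad1 (2.24, adjusted p 0.0389) were called as well. Without medulla replicate 3, Nefl had 2.21 (adjusted p 0.0195 with edgeR) and Nefm 1.80 (adjusted p 0.0487). A fit on the 10 female hypoxia libraries alone called 0 members and 132 genes, so the calls in this group rest on the spread estimated over all 40 libraries.

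In the other 3 groups 0 members passed the test, at 5.87% of genes called in female normoxia, 7.76% in male hypoxia and 6.55% in male normoxia. Nefl was 0.66 (SE 0.62) in female normoxia, 0.67 (SE 0.62) in male hypoxia and 1.39 (SE 0.63) in male normoxia, on the log2 scale. Nefm was 0.89 (SE 0.61) in female normoxia, 0.93 (SE 0.61) in male hypoxia and 1.89 (SE 0.62) in male normoxia. The Nefm value of male normoxia animals had an adjusted p of 0.0581 with edgeR, and 0.042 with each animal as a block. For Syt1 the values were -3.47 (adjusted p 0.0517 with edgeR) in female normoxia, -2.20 (adjusted p 0.154) in male hypoxia and -2.84 (adjusted p 0.0731) in male normoxia. As in the average, Syt1 passed the filter there only through its medulla reads, so calls of it carry no weight. It passed in female normoxia without medulla replicate 5 (adjusted p 0.0371 with edgeR) or cord replicate 4 (0.0489), and in male normoxia without medulla replicate 5 (0.0491). At an unadjusted p under 0.05 there were 1 member in female normoxia, 1 in male hypoxia and 3 in male normoxia. Of all 14832 genes tested, 3588 in female normoxia, 3214 in male hypoxia and 3144 in male normoxia had such a p. DESeq2 called Syt1 in female normoxia (1459 genes in all), 0 members in male hypoxia (1635 genes), and Syt1 and Nefm in male normoxia (1583 genes). Called by limma were Syt1 in female normoxia (2659 genes in all) and 0 members in male hypoxia (1166 genes) and male normoxia (2008 genes).

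**Figure D2:**
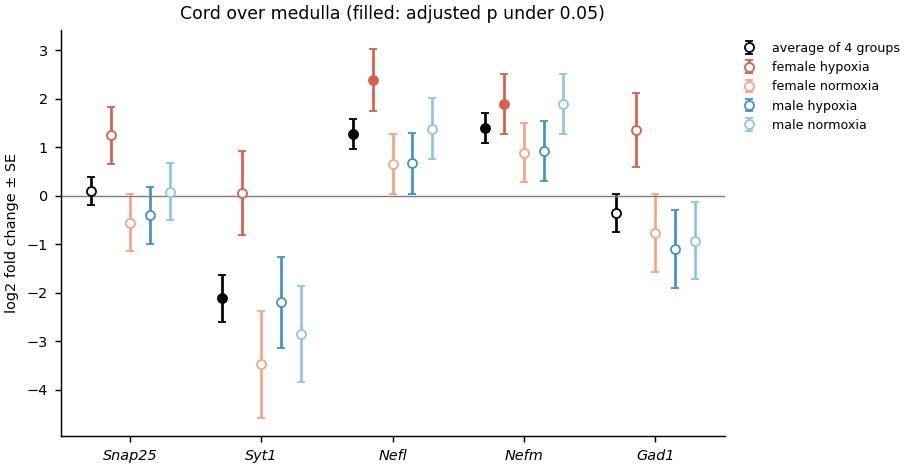
Log2 fold change of cord over medulla with its SE from edgeR's fit of all 40 libraries, for the 5 genes that passed the filter on low counts, as the average of 4 groups and within each group. Filled points have an adjusted p under 0.05: Nefl, Nefm and Syt1 in the average (1.28, 1.40 and -2.11), and Nefl and Nefm in female hypoxia animals (2.40 and 1.90).

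Within a library, the neuronal genes did not keep 1 ratio between the regions. Each gene's reads were divided by the Snap25 reads of the same library, and the log2 ratio of the medulla was subtracted from that of the cord of the same animal. This removes a change in the amount of all neuronal RNA that is equal for both genes. The levels of a ratio cannot be compared between genes, since gene lengths were not used. Over the 20 animals, 5 such ratios were tested by flipping signs, with no adjustment over the 5. The flips treated all animals as independent. By the series design each litter gave 1 male and 1 female, and the p-values do not allow for that.

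Nefl reads per Snap25 read, pooled over libraries, were 2.17 in the cord and 0.964 in the medulla. The difference per animal averaged 1.11 on the log2 scale (SD 0.79, n = 20), 2.16-fold, and was positive in 19 of 20 animals (two-sided permutation test, p = 9.0e-05). Nefm reads per Snap25 read were 1.88 in the cord and 0.865 in the medulla. Their difference averaged 1.18 (SD 1.04, n = 20), 2.26-fold, also positive in 19 of 20 animals (two-sided permutation test, p = 0.00026). The exception was for both genes the animal female hypoxia 3, whose medulla library had 5 Snap25 reads. Without that animal the difference was positive in 19 of 19, at 1.25 for Nefl and 1.38 for Nefm, each at the smallest p that 100000 permutations can give (1e-05).

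By group, the Nefl ratio differed by 0.71 ± 1.25 in female hypoxia, 1.34 ± 0.37 in female normoxia, 0.95 ± 0.61 in male hypoxia and 1.45 ± 0.68 in male normoxia animals (log2 scale, SD, n = 5 each). The Nefm ratio differed by 0.15 ± 1.63 in female hypoxia, 1.54 ± 0.25 in female normoxia, 1.19 ± 0.53 in male hypoxia and 1.81 ± 0.38 in male normoxia animals. The female hypoxia means rest on animal 3: over the other 4 animals the difference was 1.25 ± 0.27 for Nefl and 0.87 ± 0.36 for Nefm (SD, n = 4). Both ratios were higher in the cord of 5 of 5 animals in the female normoxia, male hypoxia and male normoxia groups, and of 4 of 5 female hypoxia animals. Male hypoxia 5 and male normoxia 3, in which Nefl and Nefm CPM were lower in the cord, had lower Snap25 there as well, and their ratios went the way of the other animals.

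Syt1, the partner of Snap25 in vesicle release, shifted in the opposite direction. Syt1 reads per Snap25 read were 0.0163 in the cord and 0.0665 in the medulla. The per-animal difference averaged -1.71 on the log2 scale (SD 1.59, n = 20) and was negative in 18 of 20 animals (two-sided permutation test, p = 7.0e-05). The cord value rests on a median of 2 Syt1 reads per library and depends on the 0.5 reads added to each count. With 1 read added it was -1.47 (permutation p = 0.00015). Gad1 reads per Snap25 read were 0.0549 in the cord and 0.0687 in the medulla, and the difference of -0.65 (SD 1.40, n = 20) had a permutation p of 0.0488, with 12 of 20 animals negative. This p was 0.0607 with 1 read added and 0.0871 without female hypoxia 3, and passed 0.05 in 9 of 20 sets that leave out 1 animal. For Rbfox3 the difference was 1.03 (SD 3.18, n = 20; permutation p = 0.161), with 13 of 20 animals positive.

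**Figure D3:**
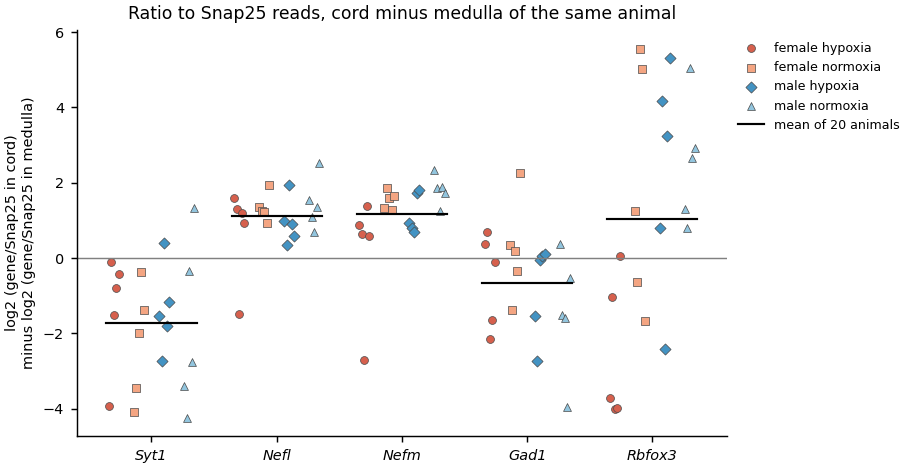
Log2 ratio of each gene to Snap25 in the cord minus that in the medulla of the same animal, 1 point for each of 20 animals, shaped by group, with the mean as a line. Nefl and Nefm sit above 0 in 19 of 20 animals and Syt1 below 0 in 18 of 20, while Gad1 and Rbfox3 spread to both sides.

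In the female cord, Snap25 and Nefl rose with gestational hypoxia. Snap25 averaged 27.6 ± 15.8 CPM in female hypoxia cord and 7.75 ± 4.89 in female normoxia cord (SD, n = 5 each), a log2 fold change of 2.02 (SE 0.49, adjusted p 0.00358 with edgeR). The lowest hypoxia values, 12.9 and 13.93 CPM, lay just under the highest normoxia value, 13.95 CPM, and the other 3 lay above it. Nefl averaged 58.7 ± 38.3 CPM in female hypoxia cord and 18.4 ± 13.5 in female normoxia cord, a log2 fold change of 1.86 (SE 0.55, adjusted p 0.0131 with edgeR). The Nefl ranges overlapped between 21.3 and 39.6 CPM. Nefm had 1.34 (SE 0.56, adjusted p 0.0689 with edgeR) and Gad1 1.88 (SE 0.79, adjusted p 0.0723). In the cord Gad1 passed the filter on low counts largely through female hypoxia replicates 2, 4 and 5, at 4.17, 1.26 and 1.39 CPM. A fit of the female cord libraries alone left Gad1 under the filter, so calls of it for exposure carry no weight. Syt1 and Rbfox3 were under the filter in the cord: over 5 libraries Syt1 had 44 reads in female hypoxia cord and 3 in female normoxia cord, and Rbfox3 had 15 reads in female hypoxia cord and 23 in female normoxia cord.

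These 2 calls among 4 members stood in a comparison that called 32.8% of 13593 genes, 18.2% higher, so a raised neuronal gene was one among many raised genes. The median of the 4 members, Gad1 included, was 1.87 on the log2 scale, against -0.01 over all genes tested. Female hypoxia cord libraries were also deeper than those of female normoxia cord, at 13570283 to 20650051 reads, against 8818241 to 13327037. The part of depth in the result was not tested. Replicate 2 of female hypoxia cord had the highest Snap25, Nefl, Nefm and Gad1 of all 40 libraries. Without it Snap25 stayed called and Nefl did not (1.38, adjusted p 0.0589 with edgeR). Nefm was called without female normoxia cord replicate 4 (1.88, adjusted p 0.0178 with edgeR) or without female hypoxia cord replicate 1 (0.0479) or 3 (0.0458). Gad1 passed the test without female hypoxia cord replicate 3 (0.0453), a call without weight for the reason given above.

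In the male cord and in both medulla comparisons no member passed the test of exposure. Snap25 averaged 7.67 ± 3.15 CPM in male hypoxia cord and 8.70 ± 5.31 in male normoxia cord, and Nefl 18.0 ± 8.82 in male hypoxia cord and 18.5 ± 11.9 in male normoxia cord. With edgeR 0 of 4 members were called, with log2 fold changes from -0.37 to 0.37, and 0% of all genes were called. In the medulla 0 of 5 members were called in females, from -0.53 to 0.32, and 0 of 5 in males, from 0.32 to 0.68, each with 0% of 14151 genes called. The number of members at an unadjusted p under 0.05 was 0 in each of these 3 comparisons, and other tools (DESeq2, limma) also called 0, as did fits of the medulla without female hypoxia medulla replicate 3. Over all genes, 841 had an unadjusted p under 0.05 in the male cord, 2180 in the female medulla and 122 in the male medulla. DESeq2 called 1 gene in the male cord, 53 in the female medulla and 0 in the male medulla, and limma called 1 gene in the female medulla and 0 in both male comparisons.

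The difference between the sexes in this exposure effect was tested directly in the cord. The fit took males and females as independent animals. By the series design each litter gave 1 male and 1 female, and the adjusted p-values here do not allow for that. Snap25 had an interaction of 2.22 on the log2 scale (SE 0.69, adjusted p 0.0245 with edgeR), the hypoxia minus normoxia difference being larger in females, where 23.2% of genes were called, 13.2% as higher. Nefl had 1.91 (adjusted p 0.0754 with edgeR), Nefm 1.71 (adjusted p 0.115) and Gad1 1.50 (adjusted p 0.367). The Snap25 call was lost without female hypoxia cord replicate 2 (1.80, adjusted p 0.0589 with edgeR) or male normoxia cord replicate 2 (1.86, adjusted p 0.0604). Without female normoxia cord replicate 4, Nefl (2.38, adjusted p 0.0306 with edgeR) and Nefm (2.24, adjusted p 0.0417) were called too. In the medulla 0 of 5 members were called for the same interaction, at 0% of genes called, with 0 at an unadjusted p under 0.05 and 0 by DESeq2 and limma.

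Whether the exposure effect differed between the regions was tested in the fit of all 40 libraries. In females Syt1, again with few cord reads, had an interaction of 3.53 (adjusted p 0.0651 with edgeR), Gad1 2.13 (0.168), Snap25 1.80 (0.118), Nefl 1.73 (0.158) and Nefm 1.01 (0.425), so 0 of 5 were called where 20.8% of genes were. With each animal as a block, Snap25 (2.62, adjusted p 0.014 with edgeR) and Nefl (2.14, adjusted p 0.045) passed. Without female hypoxia medulla replicate 5, Snap25, Syt1, Nefl and Gad1 were called, at adjusted p of 0.0075, 0.0336, 0.0221 and 0.0465 with edgeR. Without female normoxia cord replicate 4, Syt1 was called (0.037). At an unadjusted p under 0.05 there were 2 members and 5091 of 14832 genes. DESeq2 and limma called 0 members, with 3638 genes called by DESeq2 and 2574 by limma. In males 0 of 5 were called, at 0% of genes, with 0 members (279 genes) at an unadjusted p under 0.05 and 0 by DESeq2 or limma.

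**Figure D4:**
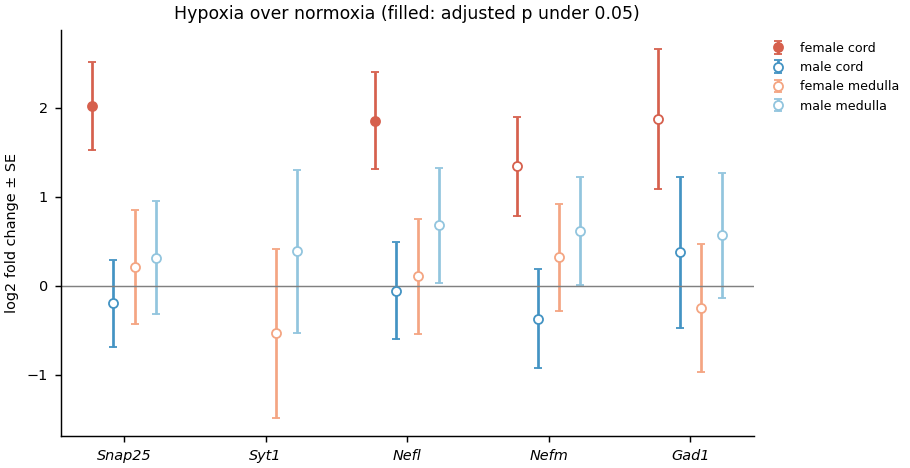
Log2 fold change of hypoxia over normoxia with its SE, from edgeR's fit of the 20 libraries of each region, for the genes that passed the filter on low counts. Filled points have an adjusted p under 0.05: Snap25 (2.02) and Nefl (1.86) in the female cord, while the male cord and both medulla comparisons run from -0.53 to 0.68; Syt1 was not tested in the cord.

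Averaged over the exposures, no member was called between the sexes in the main fit, which made no allowance for litters. In the cord 0 of 4 members were called for female minus male, from 0.61 to 1.23 on the log2 scale, at 1.41% of genes called. There 3 members (Snap25, Nefl and Gad1) had an unadjusted p under 0.05, as did 2523 of 13593 genes. In the medulla 0 of 5 were called, from -0.39 to 0.63, at 0.0707% of genes called. There 0 members and 1441 of 14151 genes had an unadjusted p under 0.05. Neither DESeq2 nor limma called a member in either region. With the replicate number as a block, Snap25 was called in the cord, where 334 of 13593 genes were.

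Ordered by their group means, Snap25, Nefl, Nefm and Gad1 were all highest in female hypoxia cord. Nefl followed with 18.5 ± 11.9 CPM in male normoxia cord, 18.4 ± 13.5 in female normoxia cord and 18.0 ± 8.82 in male hypoxia cord, and its 4 medulla groups came last, from 11.9 ± 12.8 in female hypoxia to 7.24 ± 4.29 in male normoxia. Nefm had 43.6 ± 26.6 CPM in female hypoxia cord, 22.1 ± 15.2 in male normoxia cord, 19.6 ± 15.3 in female normoxia cord and 17.2 ± 9.01 in male hypoxia cord. Its medulla groups lay between 12.4 ± 11.8 in female hypoxia and 6.10 ± 3.82 in male normoxia. For Snap25 the order was different below the top: the next were female hypoxia, female normoxia and male hypoxia medulla, at 12.5 ± 14.9, 10.9 ± 4.47 and 10.1 ± 5.18 CPM. Gad1 had 1.53 ± 1.55 CPM in female hypoxia cord, then 0.911 ± 0.585 in male hypoxia medulla, and its lowest value was 0.309 ± 0.318 in male normoxia cord. Syt1 was highest in male hypoxia medulla, at 0.897 ± 0.695 CPM, and lowest in female normoxia cord, at 0.0650 ± 0.0999. Rbfox3 was highest in male normoxia cord, at 0.514 ± 0.509 CPM, with female hypoxia cord sixth at 0.161 ± 0.134. Among neighbours in these orders, the step from female hypoxia cord to the next group for Nefl was the 1 that exceeded the larger SD of the pair.

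Snap25, Nefl and Nefm went up and down together from animal to animal. As a description over the 20 cord libraries, Spearman's rho of log2 CPM was 0.96 for Snap25 and Nefl, 0.92 for Snap25 and Nefm, and 0.91 for Nefl and Nefm. Over the 20 medulla libraries the same pairs had 0.92, 0.87 and 0.90, and Gad1 joined them with 0.82 to Snap25. Across all 40 libraries, where the regions differ in their ratio, Snap25 had 0.79 to Nefl and 0.74 to Nefm, while Nefl and Nefm kept 0.93. Libraries of 1 group share exposure and sex, and the libraries differ in depth, so these values describe likeness and nothing more.

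Ranked against all genes tested, Nefl was the gene most like Nefm, and Nefm the second most like Nefl. In the cord alone Snap25 was the gene most like Nefl. Looking at genes that averaged a log2 CPM of 1 or more, ENSRNOG00000018039 was most like Snap25 (rho 0.93) and also most like Gad1 (0.79), over 40 libraries. Without female hypoxia medulla replicate 3 it stayed first for Snap25 (0.93) and was no longer first for Gad1 (0.77). ENSRNOG00000008716 was most like Nefl (0.95) and second for Nefm (0.92). The tables used here pair neither ID with a name. Syt1 had 0.08 to Nefl and -0.03 to Nefm over the 40 libraries, and Rbfox3 had values from -0.27 to 0.37 to the other 5, at read counts that leave little room for a correlation. The median over the 15 pairs of members was 0.38, and 0.37 without female hypoxia medulla replicate 3.

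**Figure D5:**
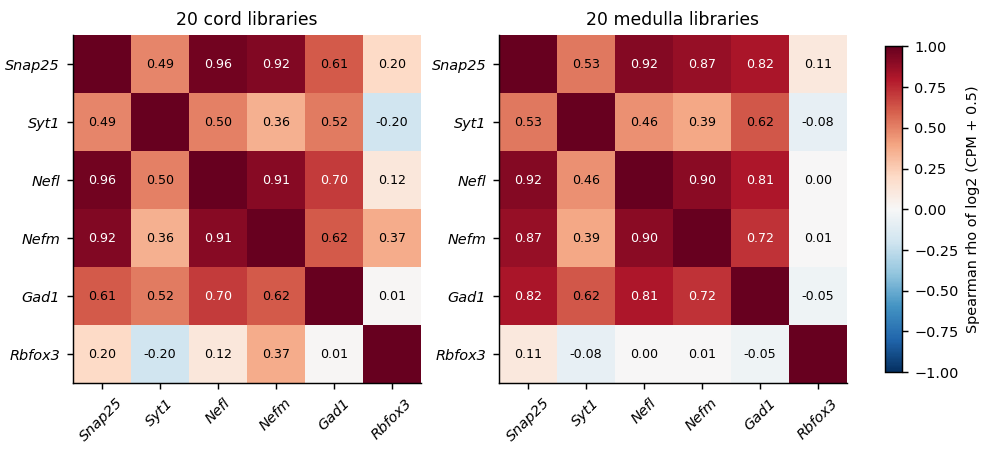
Spearman's rho of log2 (CPM plus 0.5) between the 6 genes over the 20 cord libraries (left) and the 20 medulla libraries (right), a description without a test. Snap25, Nefl and Nefm form a block of 0.91 to 0.96 in the cord and 0.87 to 0.92 in the medulla. Rbfox3 runs from -0.20 to 0.37 in the cord and from -0.08 to 0.11 in the medulla.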

How the data were processed

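Total RNA of CD11b isolations was sequenced in 40 libraries, and the authors deposited raw read counts per Ensembl gene, whole numbers that were not normalized. Per the submitters' processing notes, TopHat2 2.1, HTSeq, edgeR and build rn6 were used, with no role or order given. The sources used here do not give the annotation release, the strand setting or any filter, so overlapping or antisense genes may share reads with these 6. Of 32883 IDs, 9630 were at 0 everywhere. The reference gene table, 47357 rows of another assembly, carries 0 Ensembl IDs, so 0 IDs were matched to a symbol. The 7 lists of cell type markers and further neuronal genes were therefore not run, and the rule for named genes (all 6 members, and the 3 genes most like each) was held to 2 IDs. The members and lists were chosen with earlier results of these data known.

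CPM, computed here, are reads scaled to a library total of 1000000. Differences were tested with edgeR 4.0.16 in R 4.3.3 (quasi-likelihood F test, TMM factors, filterByExpr by group with a minimum count of 10), with Benjamini-Hochberg adjustment over all genes tested and a call at an adjusted p under 0.05. Region and its interactions were fitted on 40 libraries (14832 genes), and exposure and sex on the 20 libraries of a region (13593 genes in the cord, 14151 in the medulla). SEs are those implied by the F statistic. Ratios to Snap25 used reads plus 0.5 and a two-sided permutation test over 20 animals (100000 sign flips). The steps were tested on simulated data. Alternatives were RLE factors, no filter, DESeq2 1.42.0, limma 3.58.1 (voom, quality weights), a replicate block, fits on fewer or more libraries, another pseudocount or denominator, and leaving out each library. A fit with both the animal block and no female hypoxia medulla replicate 3, and ratios over animals with at least 10 Snap25 reads in both libraries, were chosen after seeing the data.

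Cord and medulla libraries with the same number come from 1 animal, per the series design and the labels. Their deviations from group means correlated at 0.0569 to 0.472, positive in 20 of 20 animals. Cord and medulla libraries of different animals were not set beside these values, so the pairing rests on the design and the labels. No libraries of a group agreed within sampling noise (lowest chi-square per degree of freedom 10.1). The labels name no sequencing batch.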

Additional observations from a re-analysis of the deposited data

Results flagged for a closer look

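Among 48 sets of 5 libraries (6 genes in 8 groups), 7 held a value far from the other 4. The rate of 1 set in 20 by chance holds for independent, normally distributed values. These CPM were not shown to be either, and some rest on a few reads, so the 7 are not set against that rate. In female normoxia medulla, replicate 4 stood apart for both neurofilament genes. It had 27.4 CPM of Nefl, where the others had 5.76 to 8.11, and 24.1 CPM of Nefm, where the others had 3.84 to 8.37. Male hypoxia medulla replicate 5 had 13.9 CPM of Nefm against 6.92 to 8.77 in the others. Gad1 stood apart in female normoxia cord replicate 4, at 1.02 CPM with 0.225 to 0.434 in the others, and in male normoxia medulla replicate 5, at 0.273 CPM with 0.676 to 0.769 in the others. Syt1 reached 2.43 CPM in male normoxia medulla replicate 1, with 0.0547 to 0.529 in the others. Rbfox3 reached 1.40 CPM in male normoxia cord replicate 4, with 0.174 to 0.461 in the others.

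The exposure effect on Snap25 in the cord differed between females and males by 2.22 on the log2 scale (adjusted p 0.0245 with edgeR). Snap25 was 1 of 4 members tested, where 23.2% of all genes were called, so the share is near the background. The call held in 18 of 20 fits without 1 library, and was lost with limma and with all 40 libraries in the fit. The cause of the difference was not tested.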

How the results depend on the processing

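Of the values labelled under other settings, 835 were labelled the same, 35 as gaining a call, 11 as losing one and 15 as changing sign. Descriptive values, which have no call, were labelled the same when they moved by less than their SD. The 15 do not hold every change of sign. For exposure in the female medulla, Snap25 ran from -0.77 to 0.50 with 1 library left out, about a main value of 0.21. The causes were not tested. Nefl and Nefm kept their calls for region on average under every alternative tried, and Rbfox3 was called as well without female hypoxia medulla replicate 3. That Rbfox3 call carries no weight, since the gene passed the filter through its cord libraries. Counts of members below include Syt1, whose calls carry no weight as its cord reads are under the filter. Those for exposure in the female cord include Gad1, whose calls there carry no weight either. In male normoxia 0 members were called for region. There DESeq2 called 2 (1583 of 14832 genes) and the animal block 1 (1055 of 14832). The animal block without that library called 1 (2244 of 15047 genes), and leaving that library out called 2 (1937 of 15047). With 1 library of the group left out, 0 to 1 were called (291 to 1005 genes). In female normoxia, also 0, DESeq2 called 1 (1459 of 14832 genes) and limma 1 (2659 of 14832). The block without that library called 1 (2805 of 15047 genes), and leaving that library out called 1 (1812 of 15047). In each case the member was Syt1. With 1 library left out, 0 to 1 were called (291 to 1110 genes). In female hypoxia, 2 were called (3886 of 14832 genes), against 1 with limma (1712 of 14832) and 0 with its 10 libraries alone (132 of 13337). With 1 library left out, 1 to 4 were called (2797 to 4853 genes). The animal block called 3 (3736 of 14832 genes). For region and exposure in females, 0 (3078 of 14832 genes) became 2 with the animal block (3127 of 14832). The count was also 2 with the block and without that library (3560 of 15047 genes), and 0 to 4 with 1 library left out (2236 to 4082 genes). In the female cord, 2 for exposure (4458 of 13593 genes) became 1 to 4 with 1 library left out (3639 to 4583 genes). For sex and exposure in the cord, 1 (3155 of 13593 genes) became 0 with all 40 libraries in the fit (1562 of 14832). The count was 0 with limma (3428 of 13593 genes) and 0 to 3 with 1 library left out (2569 to 3563 genes).

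Replicate numbers did not pair libraries across exposures (female cord r -0.03 to 0.12). Between the sexes in the cord, 5 of 5 numbers correlated best with their own in hypoxia (r 0.137 to 0.305) and 5 of 5 in normoxia (0.0706 to 0.399), a hint from the data, since the labels tie no number to a litter. A replicate block by number called 3 members for sex and exposure in the cord (Snap25, Nefl and Nefm), the same 3 for exposure in the female cord and 1 for female minus male in the cord (Snap25, 0.85, adjusted p 0.040 with edgeR). Of 13593 genes, the block called 3372 for sex and exposure, 4593 for exposure in the female cord and 334 for female minus male.

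Values near 0 changed sign. Snap25 for region on average ranged from -0.0056 to 0.35 with 1 library left out. In male normoxia Snap25 was -0.20 with limma, -0.0023 with the animal block and -0.25 to 0.29 with 1 library left out, and in male hypoxia 0.0016 with limma. Syt1 in female hypoxia was -0.023 with limma, -0.17 without medulla replicate 3 and -0.42 to 0.60 with 1 library left out. The Gad1 ratio to Snap25 was -0.58 (p 0.0607) with 1 read added, -0.57 (0.0871) over 19 animals with at least 10 Snap25 reads, -0.81 to -0.48 with 1 animal left out, and 1.06 (permutation p 0.0270) per Syt1 read. The Rbfox3 ratio was 2.75 per Syt1 read (permutation p 0.00297), against 1.03 per Snap25 read (permutation p 0.161). Both ratios per Syt1 read carry no weight. Cord libraries held a median of 2 Syt1 reads, and Syt1 itself was lower there per Snap25 read.

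Depth limits Syt1, Gad1 and Rbfox3, with under 10 reads in 30, 24 and 39 of 40 libraries.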
